A study of Rattus norvegicus with 12 samples.

Results

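Hbb, Alas2, Slc4a1, S100a8, S100a9 and Mmp8 are genes of circulating blood cells that were measured here in brain tissue. The first 3 belong to red cells and the last 3 to neutrophils. They were the 6 rows of the deposited table that carried these symbols, among 15939 genes. They were chosen by their normalized counts, whose group means were highest in aged rats that performed no task, so their levels in that group are given as a description and without a test. All 6 passed a filter that kept 13496 genes with a normalized count of at least 10 in at least 3 of the 12 libraries. Mmp8 passed it through the 3 aged nonperforming libraries alone, and Slc4a1 through AN1, AN3 and YN3 alone, in the library names given next.

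The libraries came from the medial prefrontal cortex of Wistar rats. Young rats (3 months) and aged rats (22 months) either learned an operant task and were tested for attention in it (performing) or spent time in the same context with no task (nonperforming). The 4 groups were young nonperforming (YN1 to YN3), young performing (YP1 to YP3), aged nonperforming (AN1 to AN3) and aged performing (AP1 to AP3). Nothing in the labels says that the 3 libraries of a group came from separate animals, so p-values measure the spread between these libraries, which may be technical. The sources used here do not give whether blood was washed out of the brain before dissection, the sex of the rats or the order of dissection.

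Hemoglobin carries oxygen, and red cells leave the marrow as reticulocytes that still hold messenger RNA for globins, for the enzymes of heme and for membrane proteins. Hbb encodes beta-globin, Alas2 the erythroid form of the enzyme that starts heme synthesis, and Slc4a1 band 3, the anion exchanger of the red cell membrane. Neutrophils are the short-lived white cells that reach infected or damaged tissue first. S100a8 and S100a9 encode calcium-binding proteins that pair as calprotectin and fill the neutrophil cytoplasm, and Mmp8 encodes neutrophil collagenase, a protease stored in granules. In healthy brain tissue both kinds of cell lie inside the vessels, next to neurons and glia that also use many of the genes known from blood.

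Sequence upstream of the start site was at hand for 4 of the 6 genes (RefSeq, GRCr8), and it is printed because the members of each cell type were highest in the same library. Each run holds the 250 bases before the start site, 5′ to 3′ on the strand of the gene. Positions are in GRCr8, which is not the build that the submitters' processing notes name (Rnor_6.0). Capitals mark matches to a short list of motifs on either strand, namely AGATAA for factors of the GATA family, TGATAA for the same family, CACACCC for the CACCC box, TTNNGNAA for C/EBP factors, GAGGAA for the core of PU.1 sites and TATAAA for the TATA box.
Hbb (GRCr8 chr1:167663722-167663971, minus strand): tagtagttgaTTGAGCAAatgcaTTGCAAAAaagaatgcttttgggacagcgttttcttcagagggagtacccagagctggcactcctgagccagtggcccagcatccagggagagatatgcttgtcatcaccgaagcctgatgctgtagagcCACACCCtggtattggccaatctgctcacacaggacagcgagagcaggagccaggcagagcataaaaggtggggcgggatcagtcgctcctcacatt
Alas2 (GRCr8 chrX:22895200-22895449, plus strand): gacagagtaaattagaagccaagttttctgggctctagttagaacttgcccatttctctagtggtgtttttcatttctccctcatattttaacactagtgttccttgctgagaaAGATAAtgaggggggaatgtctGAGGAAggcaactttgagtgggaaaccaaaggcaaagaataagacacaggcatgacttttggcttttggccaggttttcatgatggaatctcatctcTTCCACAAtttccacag
S100a9 (GRCr8 chr2:178490623-178490872, minus strand): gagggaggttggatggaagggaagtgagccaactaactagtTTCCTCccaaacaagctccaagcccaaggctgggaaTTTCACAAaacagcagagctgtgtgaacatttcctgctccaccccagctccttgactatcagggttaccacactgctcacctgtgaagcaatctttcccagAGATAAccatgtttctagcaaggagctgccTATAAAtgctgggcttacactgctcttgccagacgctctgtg
Mmp8 (GRCr8 chr8:13008640-13008889, plus strand): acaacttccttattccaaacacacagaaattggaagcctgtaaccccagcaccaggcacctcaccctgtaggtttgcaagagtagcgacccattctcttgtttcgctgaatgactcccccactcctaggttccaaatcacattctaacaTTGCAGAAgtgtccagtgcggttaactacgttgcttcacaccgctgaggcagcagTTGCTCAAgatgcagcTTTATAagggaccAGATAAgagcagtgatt

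Both red cell runs and both neutrophil runs held a match to TTNNGNAA, which 37.2% of 33469 RefSeq promoters of the same length also held. CACACCC was found in Hbb (bases 154 to 160) and in 6.12% of all promoters. AGATAA was found in Alas2 (bases 115 to 120), in S100a9 (bases 179 to 184) and in Mmp8 (bases 234 to 239), against 10.3% of all promoters, so genes of both cell types held this motif. GAGGAA was found in Alas2 and S100a9 (23.3% of promoters), TATAAA in S100a9 and, on the other strand, in Mmp8 (12.9%), and TGATAA in none of the 4 (7.97%). A match describes letters only. In the same assembly S100a8 and S100a9 are neighbours, Mmp8 lies between Mmp10 and Mmp27, and Hbb lies among other beta-like globin genes (Hbb-b2, Hbbl1 and Hbg1). Reads from such near-identical copies can be shared or lost in counting, so the level of Hbb may stand for several globin genes.

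Values are the authors' normalized read counts, the reads of a gene divided by a size factor of the library. The reads behind them were recovered, and totals ran from 22189094 in AP1 to 42205582 in YP3. Levels are compared between libraries and not between genes, because transcript lengths were not used here. Markers of tissue other than cortex were high in several libraries. The sum of choroid plexus markers was 40534 in YN3 and at most 3214 elsewhere, and olfactory bulb markers were highest in YP2, AP1 and AP3. The sum of striatal markers was highest in YP3 (19288). Apart from other tissue, the sum of microglia markers was 36013 in AP2 and at most 22020 elsewhere.

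Hbb (ENSRNOG00000058105) was high in one aged nonperforming library. It stood at 2763 in AN1, 798 in AN2 and 16903 in AN3. In aged performing rats it was 1222, 505 and 559, in young nonperforming rats 584, 500.3 and 7909, and in young performing rats 1117, 897 and 3841. AN3 was the highest of all, YN3 and YP3 came next, and AN2 lay among the low libraries, so every pair of groups overlapped. Aged nonperforming rats averaged 6821 ± 8786, aged performing rats 762 ± 399, young nonperforming rats 2998 ± 4253 and young performing rats 1952 ± 1640 (SD, n = 3), with the SD above the mean in both nonperforming groups.

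Alas2 (ENSRNOG00000000167) was also highest in AN3 and next highest in YN3. It stood at 88.9, 22.9 and 813 in AN1, AN2 and AN3, and at 25.7, 14.2 and 10.9 in AP1, AP2 and AP3. In young rats it was 13.5, 7.50 and 122 in YN1, YN2 and YN3, and 23.6, 17.7 and 84.0 in YP1, YP2 and YP3. AN3 was again far above the rest, and AN1, YN3 and YP3 formed a second tier above the remaining 8 libraries.

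Slc4a1 (ENSRNOG00000020951) was carried by few reads outside AN1 and AN3. It stood at 31.2, 5.73 and 319 in AN1, AN2 and AN3, at 2.57, 3.56 and 3.95 in AP1, AP2 and AP3, at 9.62, 1.07 and 18.4 in YN1, YN2 and YN3, and at 0.985, 4.73 and 8.27 in YP1, YP2 and YP3. In the 9 libraries of the other 3 groups these values rest on 1 to 24 reads. All 3 aged nonperforming libraries lay above all 3 aged performing ones, while AN2 lay below YN1, YN3 and YP3.

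S100a8 (ENSRNOG00000011557) turned the order of the aged nonperforming libraries around. It stood at 1188 in AN1, 14.3 in AN2 and 175 in AN3. In AP1, AP2 and AP3 it was 33.4, 10.7 and 14.8, in YN1, YN2 and YN3 16.4, 8.57 and 9.98, and in YP1, YP2 and YP3 20.7, 17.7 and 7.64. AN1 and AN3 stood far above the other 10 libraries, AN2 lay inside their range, and YN3 and YP3, rich in Hbb, were among the lowest. The aged nonperforming mean was 459 ± 636 (SD, n = 3), and the other 3 groups averaged between 11.6 and 19.6.

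S100a9 (ENSRNOG00000011483) followed its partner. It stood at 1737, 28.6 and 250.1 in AN1, AN2 and AN3, at 41.1, 14.2 and 30.6 in AP1, AP2 and AP3, at 26.0, 20.4 and 37.6 in YN1, YN2 and YN3, and at 24.6, 11.8 and 18.5 in YP1, YP2 and YP3. AN2 was again level with the other groups, below AP1, AP3 and YN3. The aged nonperforming mean was 672 ± 929 (SD, n = 3).

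Mmp8 (ENSRNOG00000009907) was the only member for which AN2 also lay above every library of the other groups. It stood at 313, 10.5 and 41.5 in AN1, AN2 and AN3, at 7.70, 2.37 and 0.988 in AP1, AP2 and AP3, at 1.92, 2.14 and 6.14 in YN1, YN2 and YN3, and at 3.94, 2.37 and 5.09 in YP1, YP2 and YP3. The value of AN2 rests on 11 reads, and those of the 9 other libraries on 1 to 8 reads each. The aged nonperforming mean was 122 ± 166 (SD, n = 3).

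**Figure D1:**
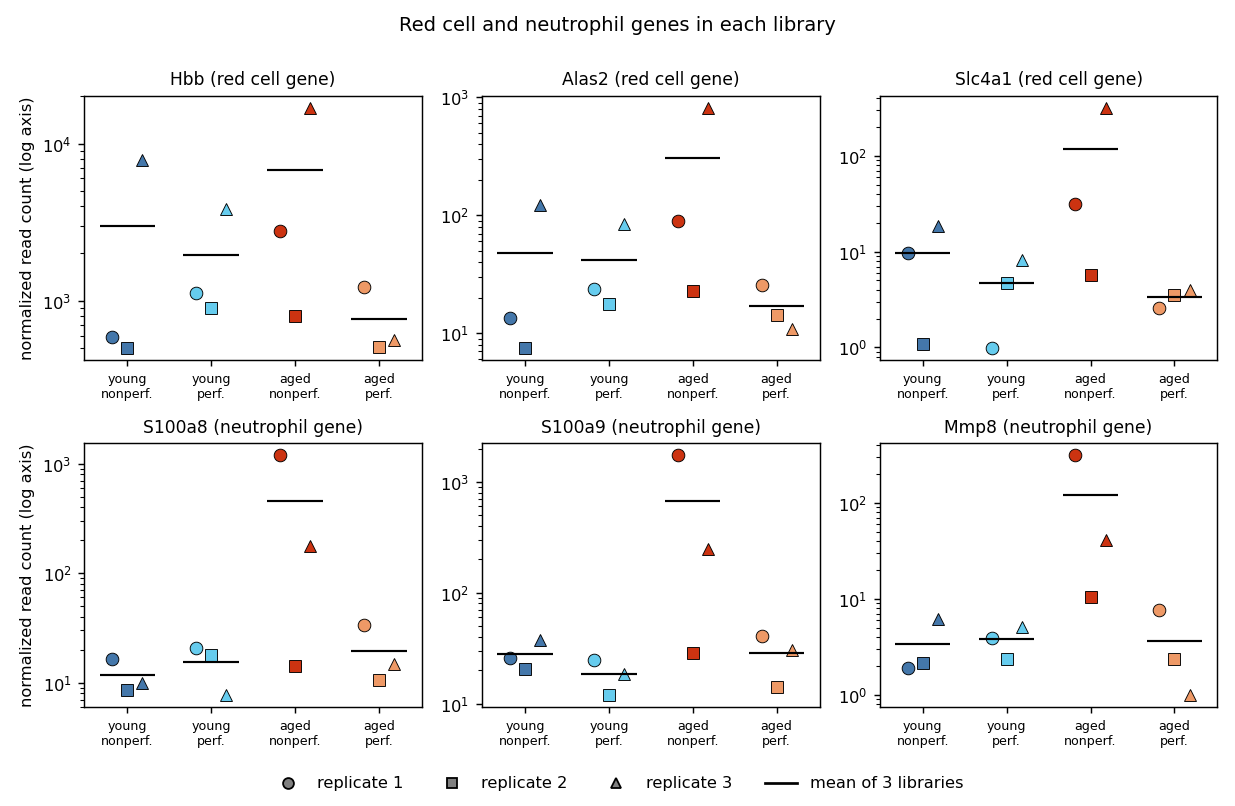
Normalized read counts of the 6 genes (log axis) in each of the 12 libraries, by group, with markers for replicates 1 to 3 and a line at the group mean. In aged nonperforming rats replicate 3 is highest for Hbb, Alas2 and Slc4a1 and replicate 1 is highest for S100a8, S100a9 and Mmp8, while replicate 2 is near the other groups except for Mmp8 (10.5).

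The group means ordered the 6 genes alike at the top and not below it. Aged nonperforming rats had the highest mean for each of the 6, which is what the choice of genes asked for. Red cell genes were next highest in young nonperforming and then young performing rats, and lowest in aged performing rats. For S100a8 the order after the aged nonperforming group was aged performing, young performing and young nonperforming, for S100a9 aged performing, young nonperforming and young performing, and for Mmp8 young performing, aged performing and young nonperforming. Neighbouring groups overlapped in every one of these steps with 1 exception, the step from aged nonperforming to young performing for Mmp8.

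Red cell and neutrophil genes thus peaked in different libraries of the same group. Hbb, Alas2 and Slc4a1 were 6.12-, 9.15- and 10.2-fold higher in AN3 than in AN1. S100a8, S100a9 and Mmp8 were 6.79-, 6.95- and 7.54-fold higher in AN1 than in AN3. Against the median of the 9 libraries of the other groups, AN1 was 80.1-, 70.5- and 132-fold higher for S100a8, S100a9 and Mmp8 and 3.08-, 5.01- and 7.89-fold higher for Hbb, Alas2 and Slc4a1. AN3 was 18.9-, 45.9- and 80.8-fold higher for Hbb, Alas2 and Slc4a1 and 11.8-, 10.2- and 17.5-fold higher for the neutrophil genes in the order above. AN2 was at 0.890- to 1.45-fold of that median for 5 genes and at 4.43-fold for Mmp8. In these bulk samples fewer cells of a type and less RNA per cell cannot be told apart.

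**Figure D2:**
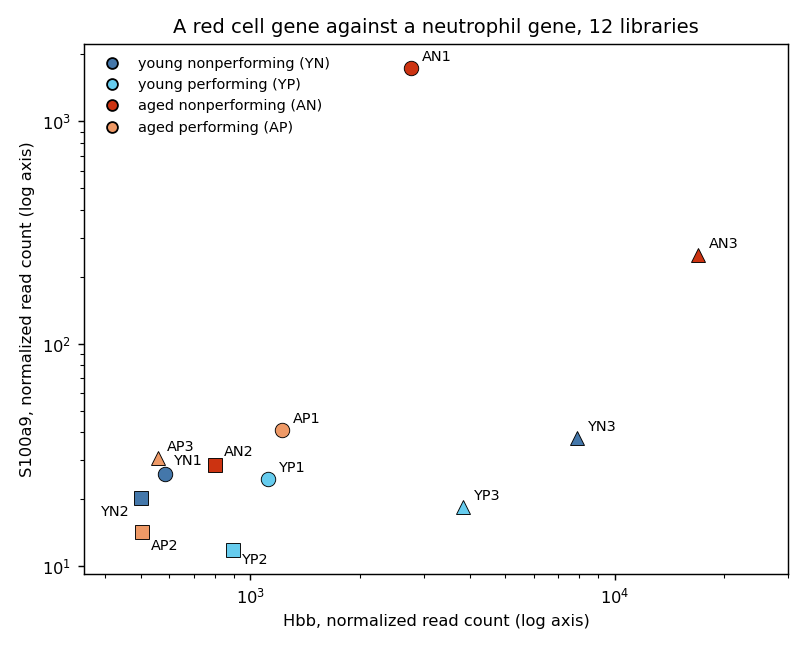
Hbb against S100a9 in the 12 libraries, as normalized read counts on log axes, colored by group. AN1 stands apart on the S100a9 axis (1737), AN3 is high on both (16903 and 250.1), YN3 and YP3 are high in Hbb alone (7909 and 3841), and AN2 lies among the low libraries.

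The members were among the genes that stood out most in AN1 and AN3. When each kept gene was ranked by its value plus 1 over the median of the other 11 libraries plus 1, S100a8, S100a9 and Mmp8 held ranks 1, 2 and 3 in AN1 with folds of 75.1, 64.4 and 63.5. In AN3 Slc4a1, Alas2 and Hbb held ranks 1, 2 and 4 with folds of 55.9, 34.1 and 18.8, and rank 3 went to Alox15, a lipoxygenase gene. AN1 was the highest library for 3 of the 6 members and for 9.53% of all kept genes, and AN3 for the other 3 and for 6.18%. The ranks describe values that entered the choice of the genes.

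Ratios of members within a library are given as a description. Hbb over Alas2 stayed between 20.8 and 66.7 in all 12 libraries, with its lowest value in AN3. S100a9 over S100a8 ran from 0.667 in YP2 to 3.77 in YN3, and was 1.46 in AN1 and 1.43 in AN3. Hbb over S100a9 ran from 1.59 in AN1 to 210 in YN3, and was 67.6 in AN3, 27.9 in AN2 and 208 in YP3. S100a8 over Mmp8 was 3.80 in AN1 and 4.21 in AN3, inside a range of 1.36 to 15. AN1 and AN3 therefore differed 6.79-fold in S100a8 and had nearly the same proportions among the neutrophil genes. For red cells the proportions differed, since Hbb over Slc4a1 was 88.7 in AN1, 52.9 in AN3 and between 60.7 and 1130 in the other 10 libraries.

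Among young rats, the libraries high in red cell genes were not high in S100a8. Against the median of YN1, YN2, YP1 and YP2, YN3 was 10.7-fold higher in Hbb and 7.82-fold higher in Alas2, and YP3 was 5.19- and 5.38-fold higher. Slc4a1 was 6.35-fold higher in YN3 and 2.85-fold in YP3. S100a8 was at 0.586-fold of that median in YN3 and 0.448-fold in YP3, and S100a9 at 1.67- and 0.821-fold. Mmp8, at 2 to 8 reads a library, was 2.73-fold higher in YN3 and 2.26-fold in YP3. YN3 and YP3 were also the libraries highest in endothelial markers, with sums of 22088 and 22265 against 8318 to 13095 in the other 10. YN3 held choroid plexus and YP3 striatal markers (a sum of 19288, against 13417 in AN3 and 12040 or less elsewhere). The part of this other tissue in the red cell values was not tested.

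Relations between the members were tested in the 9 libraries outside the aged nonperforming group, which the choice of genes did not rest on, as Pearson's r of log2(value + 1) and Spearman's rho with exact permutation p-values adjusted over the 15 pairs. Hbb and Alas2 varied together, with r = 0.982 (exact permutation p = 3.31e-05, adjusted p = 0.000496) and rho = 0.95 (exact adjusted p = 0.00529). Without the 2 libraries farthest from the median of Hbb, r was 0.903. S100a8 and S100a9 were not shown to vary together, with r = 0.363 (exact permutation adjusted p = 0.662) and rho = 0.283 (exact permutation adjusted p = 0.822), at 8 to 26 and 10 to 49 reads a library. Of the 4 pairs of Hbb or Alas2 with S100a8 or S100a9, 0 passed by r (exact permutation adjusted p = 0.662 each) or by rho (exact permutation adjusted p from 0.768 to 1). Hbb and S100a8 had r = -0.243 over the 9 libraries and 0.892 without the 2 farthest from the median of Hbb. Alas2 and S100a8 went from -0.220 to 0.875 without the 2 farthest from the median of Alas2, so the sign of both relations rests on 2 libraries.

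Mmp8 and Slc4a1 reached a normalized count of 10 in 0 and 1 of these 9 libraries, and neither would pass the filter in these libraries alone, so their pairs are given as values with no call. Hbb and Slc4a1 had r = 0.623, and -0.261 without the 2 farthest libraries. Alas2 and Mmp8 had r = 0.753 and Hbb and Mmp8 r = 0.740, at the 1 to 8 reads of Mmp8 given above.

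The effect of the task in young rats was compared first among the contrasts that the choice of genes did not use. The group means of these contrasts leave out the aged nonperforming libraries, but their SEs pool the spread within all 4 groups. Of the 4 genes that passed the filter without the aged nonperforming libraries (Hbb, Alas2, S100a8 and S100a9), 0 passed limma (adjusted p = 0.997 for each), as did 0% of the 13496 kept genes. Slc4a1 and Mmp8 did not pass the filter without those libraries, so their differences are given as values only. The log2 difference, performing minus nonperforming, was 0.24 for Hbb (SE 1.18), 0.46 for Alas2, -0.67 for Slc4a1, 0.31 for S100a8, -0.60 for S100a9 and 0.21 for Mmp8 (SE between 1.004 and 1.23). Without YN3 the difference was 1.53 for Hbb and 1.62 for Alas2, and without YN1, YN2 or YP3 that of Hbb was below 0, so its sign depended on single libraries. Over all genes 163 (1.21%) had an unadjusted p under 0.05, and edgeR and DESeq2 on the recovered reads also called 0 genes.

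Age in performing rats gave 0 calls among the same 4 genes. The log2 difference, aged minus young, was -1.16 for Hbb (SE 1.18, limma adjusted p = 0.894) and -1.01 for Alas2 (SE 1.23, limma adjusted p = 0.894). For S100a8 and S100a9 it was 0.28 and 0.55 (limma adjusted p = 0.959 and 0.917). As values only, it was -0.13 for Slc4a1 and -0.27 for Mmp8. Without YP3, the young performing library rich in red cell genes, the differences of Hbb and Alas2 were -0.51 and -0.35. Of all kept genes 0% passed limma, 466 (3.45%) had an unadjusted p under 0.05, and edgeR and DESeq2 called 0. The SEs of the 6 genes were between 1.004 and 1.23, so a log2 difference of 1 lay within 1 SE. These SEs also hold the spread of the aged nonperforming libraries, for which the genes were chosen. For S100a8 the SD of the normalized counts was 636 in that group and 4.15 to 12.1 in the other groups. The absence of calls in both contrasts is therefore not free of the group that chose the genes.

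Age in nonperforming rats and the task in aged rats are given as descriptions, and both rest on the same 3 aged nonperforming libraries. The log2 difference, aged minus young nonperforming, was 1.34 for Hbb, 2.28 for Alas2, 2.45 for Slc4a1, 3.59 for S100a8, 3.06 for S100a9 and 3.73 for Mmp8. Aged performing minus aged nonperforming was -2.25, -2.83, -3.25, -2.99, -3.11 and -3.79 in the same order. The groups did not overlap for 1 member in the first comparison (Mmp8) and for 2 in the second (Slc4a1 and Mmp8). All 3 aged nonperforming libraries lay above all 3 young nonperforming ones for 3.96% of kept genes, and above all 3 aged performing ones for 10.8%. Limma called 0% of kept genes in either comparison, with 428 (3.17%) and 1277 (9.46%) at an unadjusted p under 0.05, edgeR called 0 and 0, and DESeq2 called 7 and 89.

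Leaving out AN3 lowered the age difference of the red cell genes, and leaving out AN1 lowered that of the neutrophil genes. Without AN3 the difference was 0.17 for Hbb, 0.91 for Alas2 and 0.97 for Slc4a1, and that of S100a8, S100a9 and Mmp8 stayed at 3.47, 3.01 and 3.90. Without AN1 the neutrophil genes were at 2.09, 1.62 and 2.45 and the red cell genes at 1.47, 2.50 and 2.62. With AN2 as the only aged nonperforming library, an alternative chosen after the data were seen, Hbb was at -0.73, Alas2 at -0.05, Slc4a1 at -0.16, S100a8 at 0.33, S100a9 at 0.08 and Mmp8 at 1.51. Without YN3, the young nonperforming library rich in red cell genes, Hbb was at 2.63, Alas2 at 3.44 and Slc4a1 at 3.13.

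**Figure D3:**
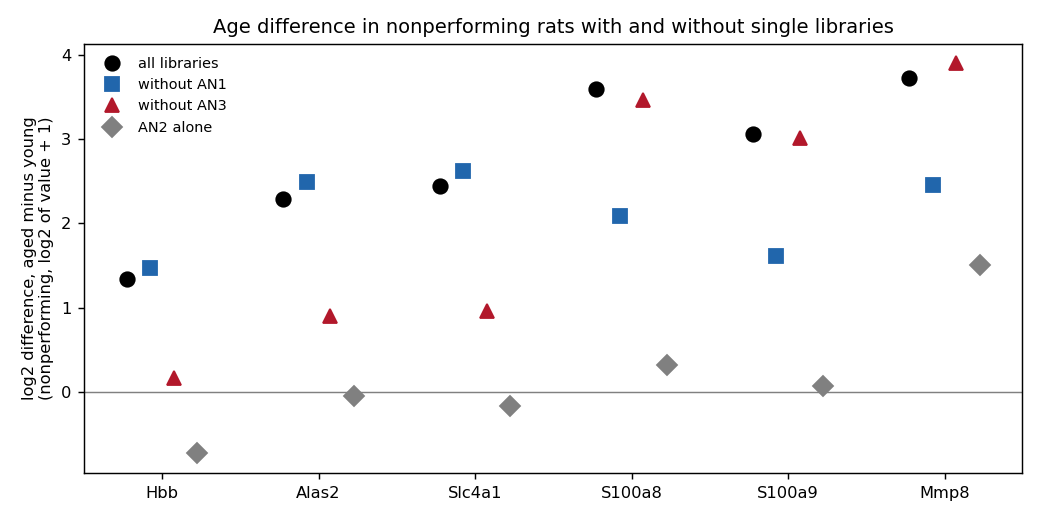
Log2 difference between aged and young nonperforming rats for each gene, with all libraries (black circles), without AN1 (blue squares), without AN3 (red triangles) and with AN2 alone (grey diamonds). Leaving out AN3 takes Hbb from 1.34 to 0.17, leaving out AN1 takes S100a8 from 3.59 to 2.09, and with AN2 alone 5 of the 6 genes lie between -0.73 and 0.33.

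Other genes of red cells were read from lists of known genes, chosen with results of these data known. The other globins moved with Hbb. Hba1, an alpha-globin gene, stood at 3618, 1706 and 20132 in AN1, AN2 and AN3, at 6649 in YN3 and 4207 in YP3, and at 761 to 1823 in the other 7 libraries. Hba2 stood at 1774, 732 and 9264 in the aged nonperforming libraries, at 3723 in YN3 and at 388 to 2205 in the other 8. All 4 listed globins in the table were at least 4-fold above the median of the 9 libraries of other groups in AN3 and 0 in AN1, where 0.615% and 0.439% of all genes were.

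A few genes of the red cell membrane and of red cell development stood out in AN3, and most did not. Of 31 in the table, 10 were highest in AN3 and 1 in AN1, against 6.83% and 9.52% of all genes. At least 4-fold above the reference median were 7 in AN3 and 0 in AN1, against 0.615% and 0.439% of all genes. Median folds of the 31 were 1.05 in AN1 and 1.24 in AN3, where all genes of the table had a median of 1 in both. Of the 24 that passed the filter, 5 were highest in AN3 and 1 in AN1. Among the 7 at least 4-fold higher in AN3, named after their values were seen, were Kel, the Kell blood group protease (36.6 in AN3, 9.23 in AN1 and 8.45 or less elsewhere), Hemgn, a nuclear protein of red cell precursors (23.7 in AN3 and 6.93 or less elsewhere), and Ahsp, the chaperone of alpha-globin (124 in AN3 and 49.9 or less elsewhere). Epb42, a band 3 partner, stood at 37.6 in AN3, 15.01 in AN1 and 11.5 in AN2, and at 9.64 or less elsewhere. These genes kept to the library that was highest in Hbb, Alas2 and Slc4a1. Bsg, Dmtn, Car2 and Bnip3l, which were among the listed genes with the highest means, are also made by neurons, glia or vessels, and 0 of these 4 were highest in AN1 or AN3. Klf1, Gypc, Rhd and Tal1 also stayed near the reference median in AN3, at 1.2-, 0.839-, 1.29- and 0.952-fold. Why these genes did not stand out was not tested. Kel and Hemgn did not pass the filter.

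Of 12 other genes of heme synthesis, 2 were highest in AN3 and 0 in AN1, against 6.83% and 9.52% of all genes. At least 4-fold above the reference median were 0 in either library, against 0.615% of all genes in AN3 and 0.439% in AN1 (median folds 0.93 in AN1 and 1.01 in AN3). Alas1, the housekeeping counterpart of Alas2, stood at 1025, 1358 and 1048 in AN1, AN2 and AN3 and at 922 to 1171 in the other 9 libraries. Urod was highest in YN3 (2637, against 784 to 1255 in the other 11), as were 7 of the 12 genes, where 27.5% of all genes in the table were highest in YN3. Slc25a39, Fech and Slc25a38, the remaining genes of the highest 5, were among those 7. Of the 12 tested genes 0 passed limma in any of the 4 comparisons, 0 had an unadjusted p under 0.05, and edgeR and DESeq2 called 0.

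Granule and secreted proteins of neutrophils were highest in AN1 more often than in AN3. Of 24 such genes in the table other than the members, 13 were highest in AN1 and 5 in AN3, against 9.52% and 6.83% of all genes. At least 4-fold above the reference median were 7 and 4 of them, against 0.439% and 0.615% of all genes (median folds 2.48 and 1.38). Of the 13 that passed the filter, 7 were highest in AN1 and 1 in AN3. Lrg1, a secreted glycoprotein of granules and liver, stood at 441, 149.9 and 218 in AN1, AN2 and AN3 and at 88.9 to 215 elsewhere. Anxa1, an abundant protein of neutrophils that limits their recruitment, stood at 202, 75.4 and 121 in the same libraries and at 43.4 to 166 elsewhere. The other 3 of the highest 5, Chi3l1, Lyz2 and Arg1, were highest in YN3, AP3 and AP3, and astrocytes, microglia or other cells of the brain can make them.

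Granule genes differed in which of the aged nonperforming libraries held most of them, and the examples were named after their values were seen. Retnlg stood at 35.8 in AN1, 10.5 in AN2 and 2.96 in AN3, and at 3.95 or less elsewhere. Mmp9, a protease of late granules, stood at 180, 128 and 103 in AN1, AN2 and AN3 and at 43.7 to 101 elsewhere. Ngp and Camp, proteins of the secondary granules formed midway in development, were high in both libraries. Ngp stood at 50.8 in AN1, 46.5 in AN3 and 8.59 or less elsewhere, and Camp at 28.9 in AN1, 42.5 in AN3 and 23.8 or less elsewhere. Some genes of the first granules were higher in AN3 than in AN1. The defensin genes Np4 and Defa5 stood at 39.5 and 23.7 in AN3 against 2.31 and 1.15 in AN1 and 6.74 or less elsewhere, and Mpo, myeloperoxidase, at 13.8 in AN3, 0 in AN1 and 4.94 or less elsewhere. Prtn3, another of them, was highest in AP3 (22.7) and stood at 8.08 in AN1 and 5.93 in AN3, and Ctsg was near absence at 1.98 or less in every library. Retnlg, Ngp, Np4, Defa5, Mpo and Ctsg did not pass the filter. The high values of Np4, Defa5 and Mpo rest on AN3 alone.

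Surface receptors of mature neutrophils were highest in AN1 more often than in AN3. Of 22 in the table, 13 were highest in AN1 and 1 in AN3, against 9.52% and 6.83% of all genes. Another 6 were highest in AP2, against 8.01%. At least 4-fold above the reference median were 8 and 3, against 0.439% and 0.615% of all genes (median folds 2.39 and 1.99). Of the 11 that passed the filter, 2 were highest in AN1 and 1 in AN3, so most of the excess in AN1 lay in genes below the filter. An example named after its values were seen is Cxcr2, the chemokine receptor that draws neutrophils out of the blood (36.9 in AN1, 7.91 in AN3 and 2.30 or less elsewhere). Clec4d stood at 93.5 in AN1 and 13.8 in AN3, Mcemp1 at 69.3 and 7.91, and Il1r2, a decoy receptor for interleukin-1, at 31.2 and 4.94. Cxcr2, Clec4d, Mcemp1 and Il1r2 did not pass the filter. Csf3r, the receptor for the growth factor of neutrophils, stood at 305, 124 and 205 in AN1, AN2 and AN3, and at 304 in AP2. The remaining genes of the highest 5, Selplg, Ptafr, Itgb2 and Fcgr3a, which microglia also carry, were all highest in AP2.

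**Figure D4:**
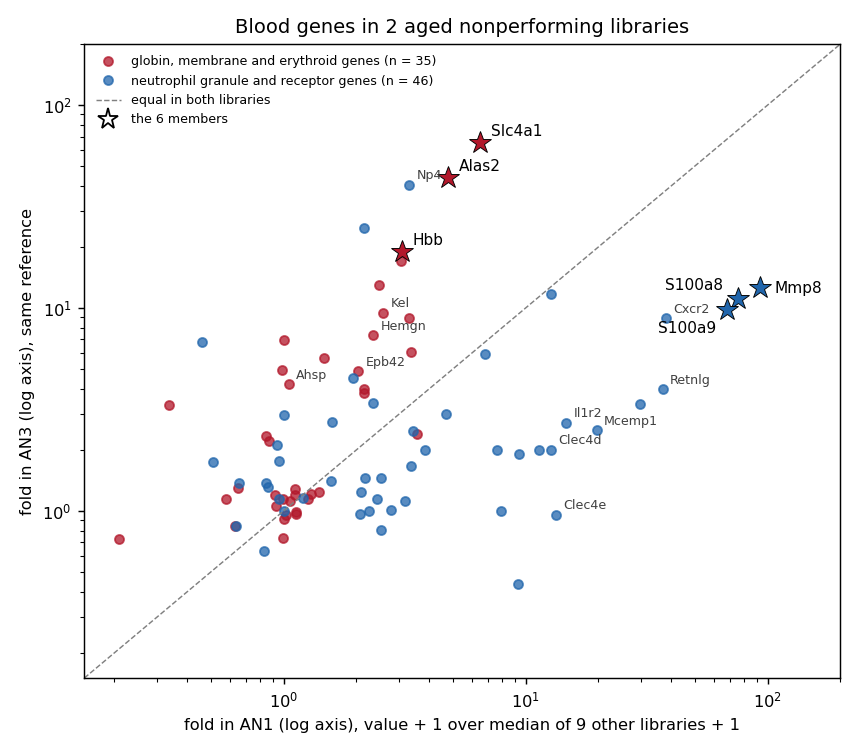
Fold over the median of the 9 libraries of the other groups (value plus 1 in each) in AN1 and in AN3, on log axes, for globin, membrane and erythroid genes (red) and neutrophil granule and receptor genes (blue), with the 6 members as stars. The red cell members lie above the diagonal of equal folds and the neutrophil members below it, as do Cxcr2 and Mcemp1, while Np4 lies with the red cell genes. Cxcr2, Mcemp1 and Np4 did not pass the filter.

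The phagocyte oxidase, the enzyme complex by which neutrophils and microglia make reactive oxygen, had 0 of 5 genes highest in AN1 or AN3 and 4 of 5 highest in AP2, where 8.01% of all genes were (Ncf1 at 950.0, Cybb at 482, Rac2 at 471 and Ncf4 at 117 there). Of 17 genes for signals that recruit neutrophils, 4 were highest in AN1 and 3 in AN3, against 9.52% and 6.83% of all genes, and 1 and 0 were at least 4-fold above the reference median. The 4 were Il1b and the chemokines Cxcl1, Cxcl2 and Cxcl3, which stood at 3.46, 2.31 and 2.31 in AN1 and at 2.57 or less elsewhere. These chemokine genes, with the 1 at least 4-fold higher in AN1 (Cxcl1) among them, did not pass the filter. Of the 9 recruiting genes that passed it, 1 was highest in AN1 and 1 in AN3. Among the other chemokines, Ccl2 reached 16.8 in AP3 (2.31 in AN1 and 10.9 in AN3) and Ccl3 17.98 in AP1 (5.77 and 16.8). Il1b, the cytokine interleukin-1 beta, stood at 32.3 in AN1, 30.8 in AP2 and 16.8 or less elsewhere. The adhesion molecule genes Vcam1, Icam1 and Icam2 and the cytokine gene Il1a were highest in YN3, AP3, YN3 and AP2, and Csf1 stood at 893 in AN3 and at 282 to 771 elsewhere.

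Receptors for calprotectin and genes that clear hemoglobin had 0 members at least 4-fold above the reference median in AN1 or AN3, where 0.439% and 0.615% of all genes were. Of 6 listed receptors of S100A8 and S100A9 (Bsg, Alcam, Cd33, Ager, Tlr4 and Cd14) 0 were highest in AN1 or AN3, and Tlr4 stood at 28.9 in AN1 against 23.0 to 142 in the other 11 libraries. Of 13 genes that clear hemoglobin, heme and iron, 1 was highest in AN1 and 3 in AN3, against 9.52% and 6.83% of all genes. Hmox1, the inducible heme oxygenase, stood at 117, 197 and 265 in AN1, AN2 and AN3 and at 137 to 264 elsewhere. Fth1, the ferritin heavy chain, was highest in YN3 (91623, against 28486 to 54205), and Ftl1 and Hmox2 were highest in AP2 and YN3. Lrp1 stood at 13709 in AN3 and up to 13026 elsewhere, and Slc48a1 at 4187 and up to 4020. Hp, which encodes haptoglobin and is also made by neutrophils, stood at 93.5 in AN1 and at 61.3 or less elsewhere. Of all tested genes of the red cell, neutrophil, recruiting, receptor and clearance lists, 0 passed limma in any of the 4 comparisons, and 0 were called by edgeR or DESeq2. At an unadjusted p under 0.05 the largest count was 4 of 13 tested granule genes for the task in aged rats (9.46% of all genes). A count of 3 was reached by the 11 tested neutrophil surface receptors for age in nonperforming rats (3.17%). It was also reached by the 5 oxidase genes for age in performing rats (3.45%). The 24 tested red cell membrane and erythroid genes had 3 for the task in aged rats (9.46%).

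Markers of other blood cells were mostly not highest in AN1 or AN3. Of 7 monocyte markers 2 were highest in AN1 and 1 in AN3, against 9.52% and 6.83% of all genes. Summed over the 7, the level was 6002 in AN1, 4711 in AN2 and 4379 in AN3, against 3132 to 5295 elsewhere. The largest part of that sum in AN1 was Nr4a1, an activity-regulated gene that neurons also make (3725, against 1125 to 3043). Of 10 platelet markers 0 were highest in AN1 and 1 in AN3, Pf4 (53.4, against 15.01 to 48.5), and Ppbp was at 1.54 or less in every library. T and NK cell markers had 0 of 12 genes highest in AN1 or AN3, and B cell markers 1 of 8 in each. Mast cell and basophil markers had 2 of 8 highest in AN1, Hdc (8.08, against 4.73 or less) and Fcer1a (3.46, against 2.37 or less), and 0 in AN3. Microglia markers had 0 of 14 highest in AN1 and 1 in AN3. Striatal markers moved with the red cell genes in AN3, where 2 of 10, Drd2 and Gpr6, were at least 4-fold above the reference median, and their part in the red cell values was not tested.

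Apart from the members, the genes whose log2 values followed Hbb most closely over the 12 libraries were Hba2 (r = 0.996), Hba1 (r = 0.987), Ptp4a3 (r = 0.91), Hba-a1 (r = 0.904), Ybx3 (r = 0.88) and Rhob (r = 0.86), given as a description. Alas2 had r = 0.975 with Hbb, and S100a9 had r = 0.958 with S100a8. The genes outside the members closest to S100a8 were Napsa (r = 0.897), Tfpi (r = 0.868), Ifit1bl (r = 0.862), Steap4 (r = 0.862), Nfe2l3 (r = 0.85) and LOC24906 (r = 0.846), with rho from 0.476 to 0.671. Napsa stood at 134 in AN1, 50.4 in AN3 and 40.2 or less elsewhere, so the likeness rests largely on AN1.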

How the data were processed

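The deposited table holds the authors' normalized counts (signal), the reads of a gene divided by a size factor of the library. The genome build Rnor_6.0 and the tools HTSeq, TopHat2, Bowtie2, DESeq2 and Trimmomatic are listed, without their roles, per the submitters' processing notes. Their versions and settings are not given in the sources used here. The library kit was stranded (TruSeq), per the labels' protocols. Dividing by the smallest step of each library gave whole reads for 100% of values (tolerance 0.01).

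Differences between group means of log2(value + 1) were tested with limma 3.58.1 (trend, all 4 groups in 1 fit, Benjamini-Hochberg adjustment over 13496 genes). They understate the change of low genes. Titles starting VP (YN1, YP1) or U gave no known batch and served as a covariate in 1 alternative. Alternatives were edgeR 4.0.16 and DESeq2 1.42.0 on the recovered reads, other pseudocounts (0.5 and 5), filters, TMM, library quality weights, and left-out libraries. Correlations used scipy 1.17.1. The limma fit was tested on simulated data.

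Named were the 6 members, the 5 listed genes with the highest mean (3 for other blood cells) and the 6 genes most like Hbb and like S100a8. Others were named after their values were seen. Some items are not reported here. The members and lists were chosen with earlier results of these data known. Listed genes without a row in the table were not analysed here.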

Additional observations from a re-analysis of the deposited data

How the results depend on the processing

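In the comparison of the task in young rats, the log2 difference of Hbb was -0.62 with edgeR and -0.62 with DESeq2, that of Alas2 -0.18 and -0.19, all turned around from the main values. Leaving out 1 library at a time gave -0.46 to 1.53 for Hbb, -0.31 to 1.62 for Alas2, -1.60 to 0.0106 for Slc4a1 and -0.0235 to 0.62 for Mmp8. For age in performing rats, library quality weights gave 0.48 for Slc4a1 and 0.28 for Mmp8. Without the 3 libraries high in olfactory bulb genes Slc4a1 was at 0.087, S100a8 at -0.23 and S100a9 at -0.55, and without YN3 and YP3 (chosen after seeing the data) Slc4a1 was at 0.36 and S100a8 at -0.12. Leaving out 1 library gave -0.76 to 0.36 for Slc4a1, -0.16 to 0.62 for S100a8 and -0.85 to 0.22 for Mmp8. None of these differences passed limma in the main fit, and the causes were not tested.

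Counts of genes passing were 0 in the main fit of each comparison. Library quality weights called 144 for the task in young rats, 4 for age in nonperforming rats and 1347 for the task in aged rats, and DESeq2 called 7 and 89 in the last 2 of these. The estimate of the weights stopped before its tolerance was reached. For the task in aged rats limma called 0 to 2 without 1 library, with 2 without YP2. Without AN1 and AN3 it called 1 for age in nonperforming rats and 1 for the task in aged rats. The lone aged nonperforming library is then assumed to vary like the other groups.

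Of the 15 pairs, 1 to 3 passed without 1 library, with 3 without AP1, where Hbb and Mmp8 (r = 0.883) and Alas2 and Mmp8 (r = 0.89) joined Hbb and Alas2 (0.973 to 0.99 without 1 library), with Mmp8 at 8 reads or fewer. Leaving out 1 library gave r from -0.0264 to 0.466 for Alas2 with S100a9, -0.162 to 0.324 for Slc4a1 with S100a9, -0.119 to 0.376 for Slc4a1 with Mmp8, -0.471 to 0.039 for Alas2 with S100a8 and -0.343 to 0.401 for S100a8 with Mmp8. Over all 12 libraries r was 0.425 for Hbb, 0.532 for Alas2 and 0.614 for Slc4a1 with S100a8, as a description. In all, 845 of 899 recomputed values counted as the same, 32 turned around, 20 moved and 2 newly passed. Tested values counted as the same when they kept their direction and their side of the threshold. Counts of genes or pairs passing did so when they stayed within a set fold, and relations over all 12 libraries by their sign alone. In the comparisons given as descriptions a shift below the SD within groups counted as the same. A value there could therefore change its sign and still be among the 845. No paired analysis was possible because numbers within a group were given by accession order and no label links one rat with another. With 3 libraries a group, 1 library can set a mean, and outside AN1 and AN3 the neutrophil genes and Slc4a1 rest on few reads.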

Other observations

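Further genes that stood out in AN1 and AN3 fell outside the lists and were found by ranking kept genes on their fold over the 9 libraries of the other groups (value plus 1). In AN3 they included Lgals5, the rat gene for galectin-5, a lectin of reticulocytes (134 in AN3 and 24.2 or less elsewhere), and Alox15, a lipoxygenase that reticulocytes use when they clear their mitochondria (2190 in AN3 and 22.7 to 142 in the other 11 libraries). Cfap44 had a value of 65.2 in AN3, against at most 15.4 in any other library.

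In AN1 the same ranking gave Lilrb4, an inhibitory receptor of myeloid cells (75.03 in AN1 and 23.7 or less elsewhere), and Serpinb1a, an inhibitor of neutrophil proteases (339 in AN1, against 40.4 to 199 in the other 11 libraries). Of the kept genes, 20 were at least 4-fold above that median in AN1, 7 in AN2 and 41 in AN3. The 7 in AN2 (Ifit1, Pirb, Clec3a, LOC689986, Cyr61, Lrrc3c and Ccl9) included none of the 6 members and no globin, and Mmp8 stood at 3.41-fold in AN2 on this scale and at 4.43-fold without the added 1.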
